A study of Schizosaccharomyces pombe with 8 samples.

Results

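Pac1 is the fission yeast homolog of Drosha, an endonuclease of the RNase III family that cuts double-stranded stretches of RNA, and it is known for processing precursors of ribosomal and small nuclear RNAs. The genes described here are pma1, gas1 and pfl2, which are protein-coding genes of the plasma membrane and the cell surface with a Pac1 peak on chromatin. The plasma membrane proton ATPase pumps protons out of the cell and so provides the gradient that drives nutrient uptake. Glucanosyltransferases of the Gas family lengthen the beta-1,3-glucan of the cell wall, and flocculins are wall-bound adhesins rich in serine and threonine through which cells stick to each other. Here pma1 (SPAC1071.10c) encodes the proton ATPase, gas1 (SPAC19B12.02c) a predicted 1,3-beta-glucanosyltransferase and pfl2 (SPAPB15E9.01c) a flocculin.

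The members were taken by name from the list of Pac1-associated loci. They make 3 of the 166 distinct gene symbols of the list and 3 of its 98 protein-coding genes, and each was paired with 1 peak. The members were thus chosen by the peak calls behind the list, so their peaks are a description and carry no test. The list came from chromatin immunoprecipitation sequencing (ChIP-seq) of 2 Pac1-TAP immunoprecipitates, each set against its own input, in Schizosaccharomyces pombe grown in EMM medium. The strain carried TAP-tagged Pac1 (allele Pac1-TAP-natMX6), was of mating type h+ and had the markers ade6-M216, leu1-32, ura4-D18 and his3-D1, and the tag was pulled down with IgG beads. The inputs came from the same strain, and no library of an untagged strain was analysed here, so signal that does not depend on the tag was not tested. The series also holds 4 libraries of an RNA polymerase II antibody and inputs from a control and a Pac1 anchor-away strain treated with rapamycin, for which no values were analysed here.

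Of 5113 protein-coding genes of the reference annotation, 98 (1.92%) were paired with a peak. The list gives 1 combined p-value for a peak, not a value for each library, so the depth is unknown and the positions below have no replicate error. An edge is where the peak caller stopped calling signal above the input, and its position can move with depth. Peaks at pma1, gas1 and pfl2 were nonetheless called in both replicates, as the list required. All 3 genes lie on chromosome I, are read from the minus strand and hold the centre of their peak. Over the list, 50 of 102 pairs of a protein-coding gene and a peak are on the minus strand, and in 65 the gene holds the centre.

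The pma1 peak ran over I:3871804-3876181 in build ASM294v2, the gas1 peak over I:4879815-4880782 and the pfl2 peak over I:3989095-3991368. The pma1 peak was 4378 bp wide, and only 2 of the 88 peaks were wider. At gas1 the width was 968 bp, with 60 wider peaks, and at pfl2 it was 2274 bp, with 22 wider peaks. The median width over all peaks was 1378.5 bp. The combined p-values were 1.3213E-212 at pma1, 6.6069E-211 at gas1 and 5.9156E-162 at pfl2. A smaller p-value was listed for 46, 47 and 63 peaks, and 34 peaks were listed at 0. The 3 genes therefore stood in the middle or lower range of the list by p-value, while the least significant peak had 9.7499E-59.

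Coverage differed among the members. The pma1 gene (I:3871642-3876176, 4535 bp) was covered over 4373 bp, or 96.4% of its length. The peak passed its 5′ end by 5 bp and stopped 162 bp before its 3′ end. The gas1 gene (I:4878579-4880798, 2220 bp) was covered over 968 bp, or 43.6%, and its peak began 16 bp inside the 5′ end and stopped 1236 bp before the 3′ end. The pfl2 gene (I:3987033-3991388, 4356 bp) was covered over 2274 bp, or 52.2%, with 20 bp free at the 5′ end and 2062 bp free at the 3′ end. All 3 peaks thus passed the 5′ end or came within 20 bp of it, and the longer uncovered stretch lay at the 3′ end. The pma1 peak spanned most of the gene. At gas1 and pfl2 the peak lay wholly within the gene.

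**Figure D1:**
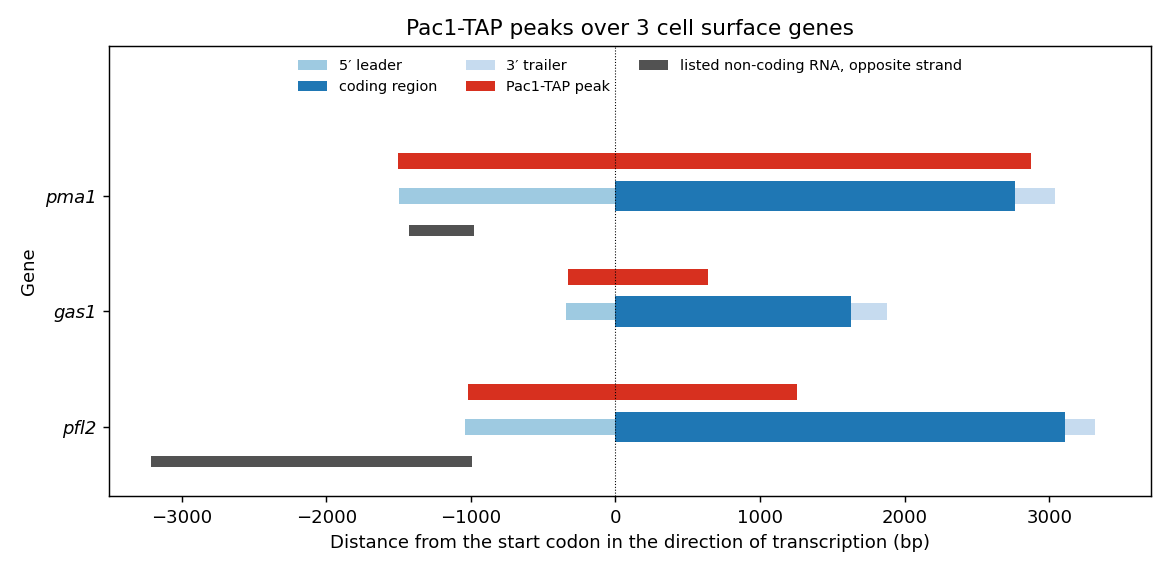
Maps of pma1, gas1 and pfl2, drawn to scale, with the distance from the start codon in bp on the x axis and transcription from left to right. Red bars show the peak, blue bars the leader, coding region and trailer, and dark bars the listed RNAs of the opposite strand. The pma1 peak fills 96.4% of the gene, whereas the gas1 and pfl2 peaks stop 1236 and 2062 bp before the 3′ end.

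The peak centre lay 83.5 bp from the midpoint of pma1 on its 5′ side, which is 1.84% of the gene's length. At gas1 the distance was 610 bp (27.5% of the length) and at pfl2 1021 bp (23.4%), both also on the 5′ side. The centre of the whole peak, leader included, was also set against the midpoint of the coding region. It lay at -25.1% of the coding length in pma1, -40.5% in gas1 and -46.2% in pfl2 (negative is toward the 5′ end). These values take in the leader. The pma1 peak holds the whole coding region, so its value follows from how far the peak reaches past each end of that region. It shows no 5′ placement within coding sequence. The length of the gene did not order them. The list held 4 genes longer than pma1, 5 longer than pfl2 and 38 longer than gas1, so the well covered gene and one of the partly covered genes were of nearly the same length.

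The place of the start codon gave a different view of the same edges. A long transcribed leader lies between the 5′ end of each gene and its start codon, 1497 bp in pma1, 345 bp in gas1 and 1039 bp in pfl2 by the listed gene bounds. In the reference annotation, whose 5′ ends differ, these leaders are 1432, 287 and 1063 bp, against a median of 99 bp over the 4515 protein-coding genes with an annotated leader. Only 23 of those genes have a longer leader than pma1 and 56 a longer one than pfl2, while 743 have a longer one than gas1. The peak covered 100% of the pma1 leader, 95.4% of the gas1 leader and 98.1% of the pfl2 leader. It held all 2760 bp of the pma1 coding region and passed the stop codon by 116 bp. In gas1 it held the first 639 bp, or 39.2%, of a coding region of 1629 bp, and in pfl2 the first 1255 bp, or 40.3%, of 3111 bp. Counted in codons, the edge came after codon 213 of gas1 and after codon 418 of pfl2. The leader made up 34.2% of the pma1 peak, 34.0% of the gas1 peak and 44.8% of the pfl2 peak.

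Of the 102 protein-coding gene-peak pairs, 25 (24.5%) were covered over at least 99% of the gene, and none of the 3 members was. The median coverage was 68.0% over all pairs. Among them 69 pairs were covered less than pma1, 42 less than gas1 and 44 less than pfl2. Many of those pairs are neighbours that a peak only touches. Among the 65 pairs whose gene holds the peak centre the median was 95.2%, and 36 were covered less than pma1, 9 less than gas1 and 11 less than pfl2. So pma1 stood close to the middle of these genes, and gas1 and pfl2 among the least covered.

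Which end was covered set the members beside fewer genes. The peak came within 50 bp of the 5′ end, or passed it, without doing so at the 3′ end in 12 of the 65 centre-holding pairs (18.5%), and pma1, gas1 and pfl2 were 3 of the 12. Both ends were reached in 28 pairs, the 3′ end alone in 17 and neither in 8. The peak passed the 3′ end in 45 of the 65 pairs, which include none of the members. The other 9 genes with the 5′ end alone covered ranged from seb1 (36.8% of the gene), an RNA-binding protein of transcription termination, to tbp1 (96.2%), the TATA-binding protein. They include the predicted transporter SPBC530.02 (40.7%), but2 (71.1%), the chaperone gene bip1 (91.7%) and pyk1 (93.8%), which encodes pyruvate kinase. These genes were named after their values had been seen. With the distance widened to 200 bp, a choice made after seeing the data, 12 pairs met the rule and pma1 was no longer among them.

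**Figure D2:**
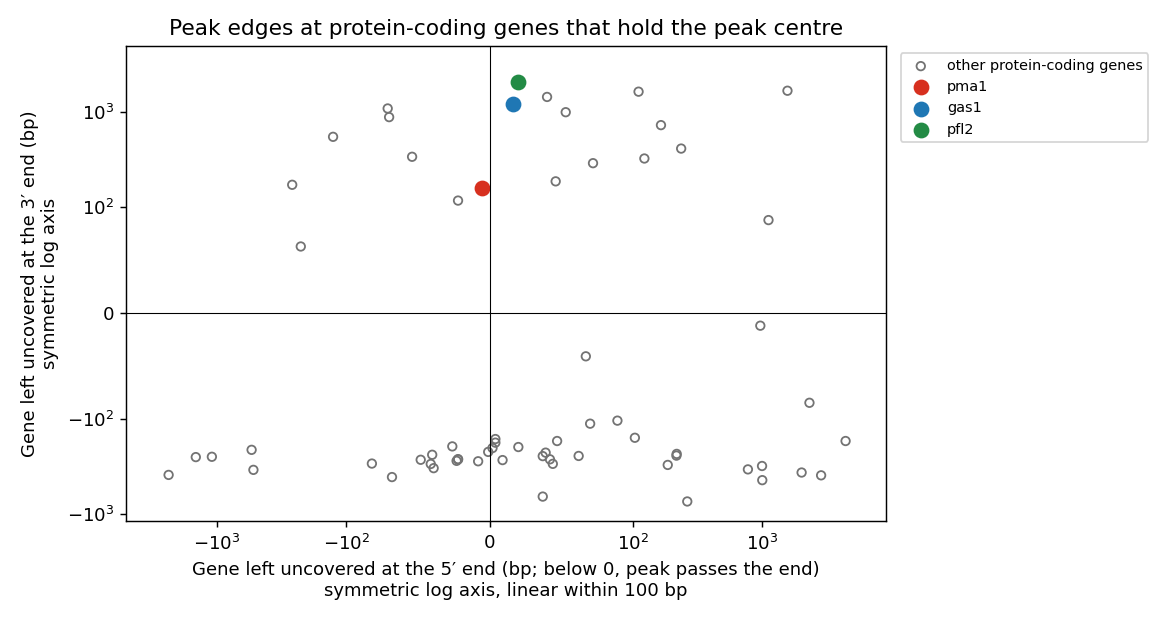
Bases left uncovered at the 5′ end (x axis) and the 3′ end (y axis) of the 65 protein-coding genes with a peak centred on them, on symmetric log axes in bp. Negative values mean that the peak passes that end. The coloured points for pma1, gas1 and pfl2 sit near 0 at the 5′ end and at 162, 1236 and 2062 bp at the 3′ end.

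Genes with nearly the same coverage were not always covered at the same end. Nearest to pma1 were the amino acid permease gene SPCC794.03 (96.5%), tbp1 (96.2%) and the mitochondrial carrier gene anc1 (96.6%). Nearest to gas1 were gpi12 (42.4%), which acts in making GPI anchors, hmt2 (45.9%) and SPBC530.02 (40.7%). The gpi12 peak left 963 bp free at the 5′ end and passed the 3′ end by 12 bp, while the SPBC530.02 peak passed the 5′ end by 71 bp and left 1099 bp free at the 3′ end, as at gas1. Nearest to pfl2 were SPBPB7E8.01 (53.4%), the transporter gene mfs2 (55.4%) and thi2 (57.9%), a gene of thiamine synthesis. SPBPB7E8.01 is a long gene too (4959 bp), but its peak left 2311 bp free at the 5′ end and passed the 3′ end by 85 bp.

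The RNAs at the same peaks differed as well. The pma1 peak was paired with 1 further gene, the non-coding RNA SPNCRNA.92. It is read from the opposite strand over I:3875656-3876105 (450 bp), lies wholly inside the peak and inside the pma1 leader, and takes up 10.3% of the peak. It overlaps no coding base of pma1: its near edge is 977 bp upstream of the start codon and its far edge 71 bp from the 5′ end of the gene. The pfl2 peak was paired with an RNA antisense to the neighbouring gene SPAPB15E9.02c (SPNCRNA.954). This RNA spans 2219 bp of the opposite strand, overlaps pfl2 by 47 bp at its 5′ end and has 27 bp, or 1.22% of its length, in the peak. The gas1 peak was paired with no other gene. ChIP-seq reads carry no strand, so signal from pma1 and from SPNCRNA.92 cannot be told apart over the 450 bp that they share.

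The later reference annotation holds RNAs that the list does not name. At gas1 it has SPNCRNA.4192, 1558 bp of the opposite strand, which overlaps 1429 bp of the coding region, spans 79.3% of the peak and has 49.3% of its own length there. At pfl2 it has SPNCRNA.3779 (1015 bp, or 29.6% of its length, in the peak) and SPNCRNA.3780 (269 bp, all in the peak and in the leader). Counted with these, the peaks held 2 genes at pma1, 2 at gas1 and 4 at pfl2, and all 3 members had an opposite-strand RNA in the peak. Reference RNAs at the other peaks of the list were not counted. Whether this is more than at other peaks was therefore not tested.

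No other protein-coding gene was paired with these 3 peaks. The nearest lay 355 bp from pma1 (SPAC1071.09c), 1362 bp from gas1 (cmc4) and 462 bp from pfl2 (SPAPB15E9.02c). The nearest other peak was 12104 bp away at pma1, 55953 bp at gas1 and 16472 bp at pfl2, so each peak stood alone on its stretch of the chromosome.

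The sequence itself limits where reads can be placed. Reads were single-end and 50 nt long, so each word of 50 bases in the reference genome (RefSeq, ASM294v3) was counted on both strands. All 4486 words of pma1 and all 2171 words of gas1 occur once, against 95.9% of the words of the genome. In pfl2 only 3668 of 4307 words (85.2%) do. The other 639 have up to 3 copies, all of them inside pfl2, and they span coding positions 372 to 2156, counted from the first base of the start codon. The share of unique words was 91.3% inside the peak and 80.3% outside it. The peak edge at coding position 1255 fell inside a run of 239 words without a unique one, which covers coding positions 1033 to 1320. This run is the first copy of the longest exact repeat of the gene, 288 bp long and read in frame over 96 codons. Its copies lie at I:3989030-3989317, across the edge, and at I:3988688-3988975, outside the peak. The repeat is shown because the edge of the pfl2 peak falls in it, all in lower case on the coding strand, as no base is singled out.
pfl2 repeat: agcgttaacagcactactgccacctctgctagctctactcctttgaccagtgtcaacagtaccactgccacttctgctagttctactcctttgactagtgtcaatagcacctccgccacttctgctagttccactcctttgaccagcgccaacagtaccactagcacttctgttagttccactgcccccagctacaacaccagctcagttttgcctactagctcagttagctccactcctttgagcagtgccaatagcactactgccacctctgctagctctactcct
How reads with several possible places were counted at this stretch was not tested, and the position of the pfl2 edge is read with this limit. The pma1 and gas1 edges lie in unique sequence.

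**Figure D3:**
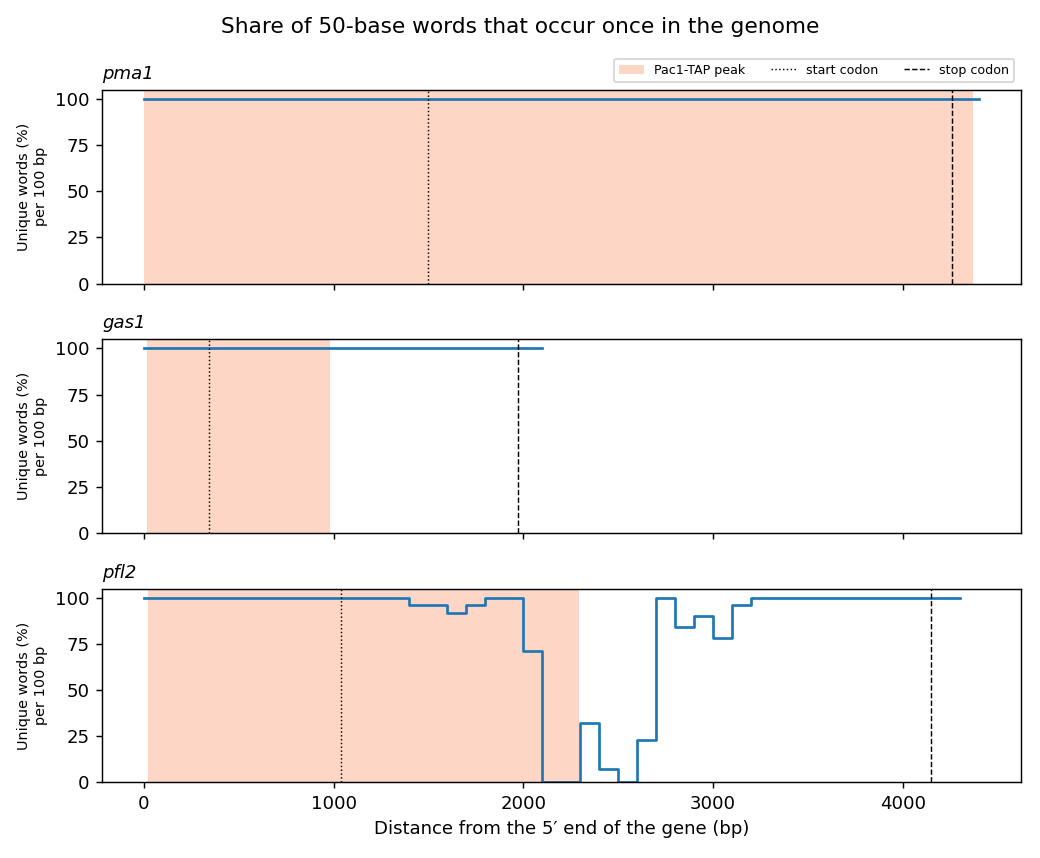
Share of words of 50 bases that occur once in the genome (y axis, percent) in steps of 100 bp by distance from the 5′ end of the gene (x axis, bp), with the peak shaded and start and stop codons as lines. The pma1 and gas1 lines stay at 100%, whereas the pfl2 line drops to 0 just inside the peak edge.

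The coded proteins differ in make-up on the 2 sides of the edge. In gas1, serine and threonine make up 14.1% of the 213 residues coded inside the peak and 28.9% of the 329 coded outside it. In pfl2 the shares are 61.2% of 418 residues inside and 52.9% of 618 outside. Over the whole protein they are 10.8% in pma1, 23.1% in gas1 and 56.3% in pfl2, against 13.9% in the median gene, and only 2 of 5111 genes have a higher share than pfl2. So the gas1 peak holds the part that is poorer in these residues, and the pfl2 peak lies over repeat and non-repeat alike.

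Codon use was set beside that of 138 ribosomal protein genes, as an index in which 1 would mean that each codon was the one these genes use most. The index was 0.828 in pma1, 0.668 in gas1 and 0.514 in pfl2, higher than in 99.9%, 95.5% and 87.9% of protein-coding genes. The order of the 3 indices was the order of their p-values, and with 3 genes nothing more can be read from it.

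The closest relatives of pma1 and gas1 had no peak. The second proton pump gene pma2 codes for a protein with 82.1% identity to pma1 over 873 residues. The longest run of bases that they share is 23 bp, shorter than a read. Its codon index was higher than in 69.6% of genes. For gas1 the relatives are gas2 (41.4% identity over 461 residues), gas5 (40.7% over 361) and gas4 (38.3% over 360), with shared runs of 14, 11 and 11 bp. Of these, gas2 had a codon index higher than in 97.1% of genes, above gas1. No relative of pfl2 was found by protein alignment at an e-value of 1e-05. The list of flocculins used below holds 9 genes, pfl2 included, and only pfl2 had a peak. Codon use and folding of the others were not set beside those of pfl2.

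Since RNase III enzymes cut RNA hairpins, the predicted folding of the transcripts was computed in windows of 120 nt. The mean window energy was -19.9 kcal/mol in pma1, -21.3 in gas1 and -19.7 in pfl2, against -19.8 in the median gene. These values are lower (more stable) than in 51.8%, 74.1% and 48.7% of genes. Of the relatives without a peak, pma2 (-25.0 kcal/mol, 96.3% of genes), gas2 (-22.3, 83.6%) and gas4 (-22.7, 87.3%) had more stable means, and gas5 (-19.0, 34.5%) a less stable one. So over the whole annotated gene pma1 had a less stable mean than pma2, and gas1 stood between gas5 and the other Gas genes. These means take in the leader, which is 1432 nt long in pma1. Coding windows were not set apart in the relatives, so the order for coding sequence alone was not computed.

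Folding was weaker in the leader than in the coding region of all 3 genes. In pma1 the peak holds both, so coding sequence inside and outside it could be set side by side in gas1 and pfl2 only. In the leader the mean was -14.8 ± 4.05 kcal/mol in pma1 (SD over 69 overlapping windows), -13.1 ± 5.35 in gas1 (12 windows) and -14.1 ± 4.78 in pfl2 (51 windows). In the coding region inside the peak it was -23.3 ± 4.98 in pma1 (138 windows), -21.8 ± 4.36 in gas1 (32 windows) and -21.0 ± 3.97 in pfl2 (62 windows). In the coding region outside the peak it was -24.2 ± 5.41 in gas1 (49 windows) and -22.0 ± 4.98 in pfl2 (93 windows). The coding sequence thus differed by less than 1 SD across the edge in gas1 and pfl2. The leaders are poor in G and C (32.3% in pma1, 27.2% in gas1 and 30.2% in pfl2), against 45.7%, 43.2% and 49.2% in the coding regions.

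**Figure D4:**
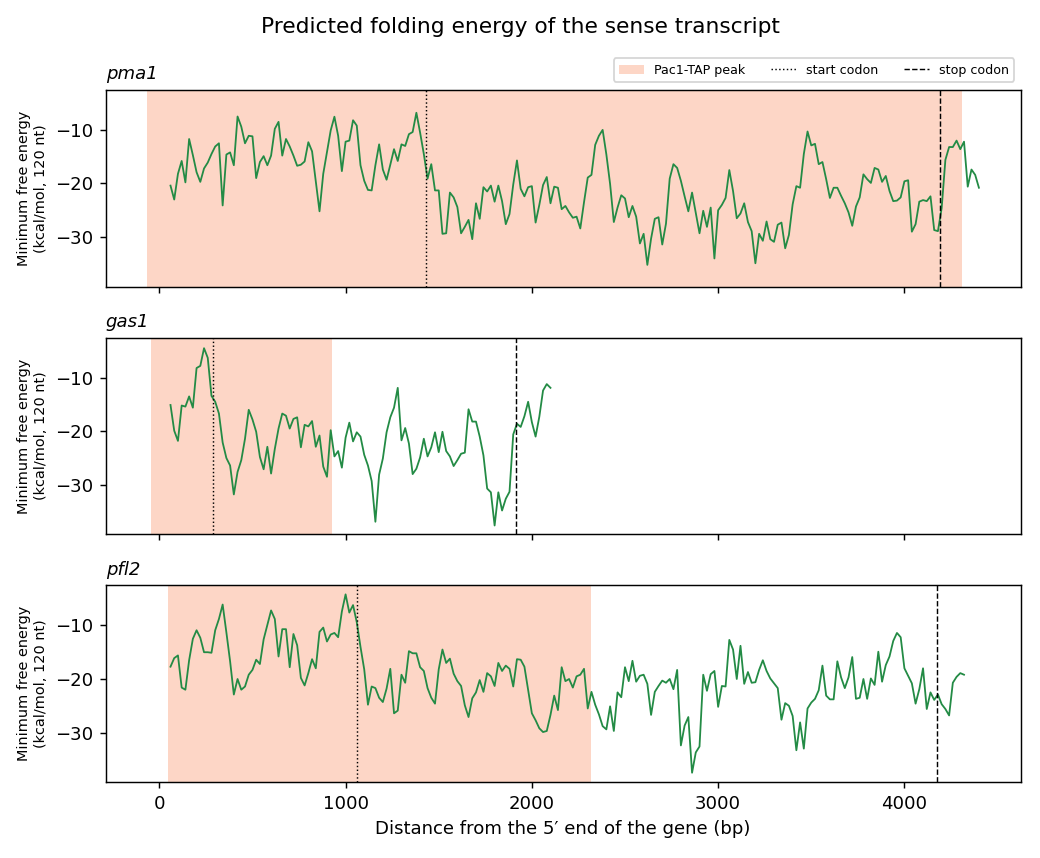
Predicted minimum free energy of 120 nt windows (y axis, kcal/mol, lower is more stable) by distance of the window centre from the 5′ end (x axis, nt) in pma1, gas1 and pfl2, with the peak shaded and start and stop codons as lines. Windows in the leaders lie higher on average than those in the coding regions, and in gas1 and pfl2 the coding windows inside and outside the peak overlap in range.

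The most stable local structure of at most about 150 nt inside each peak lay in the coding region. It had -42.5 kcal/mol in pma1 (I:3874167-3874316, coding positions 364 to 513, 51 pairs), -33.6 in gas1 (I:4880227-4880375, positions 79 to 227, 45 pairs) and -37.2 in pfl2 (I:3989270-3989420, positions 930 to 1080, 44 pairs). The longest unbranched stems of these structures had 25, 27 and 10 pairs, counted across bulges and internal loops of any size. Over all local structures of the whole gene at this span, the longest stem had 51 pairs in pma1, 50 in gas1 and 46 in pfl2. In the relatives without a peak it had 44 pairs in pma2, 48 in gas2, 45 in gas4 and 51 in gas5. Outside the peak the lowest structure was more stable in both partly covered genes, at -44.5 kcal/mol in gas1 and -43.2 in pfl2. The relatives without a peak had -50.2 in pma2, -38.6 in gas2, -43.7 in gas4 and -41.9 in gas5. Those of the relatives are the lowest of the whole gene, as are -42.5 in pma1, -44.5 in gas1 and -43.2 in pfl2. The longest stem of the lowest structure in gas1 had 27 pairs inside the peak and 18 outside, the reverse of the order by energy. In pfl2 it had 10 pairs on both sides. With a span of at most 100 nt, it had 30 pairs inside and 32 outside in gas1, and 10 and 7 in pfl2. The stretch of pma1 outside its peak is only 162 nt long, and its lowest structure had -23.3 kcal/mol and a stem of 16 pairs. The stretches compared differ in length, and cleavage was not measured. Which structure is lowest inside the peak depends on the span. With at most 100 nt it began at coding position 1226 in pma1 (stem of 36 pairs), 202 in gas1 (30 pairs) and 971 in pfl2 (10 pairs). The 3 sequences are shown because they are the candidates that the folding step finds under each peak at the span of about 150 nt. They are on the coding strand as DNA, with paired bases in capitals.
pma1: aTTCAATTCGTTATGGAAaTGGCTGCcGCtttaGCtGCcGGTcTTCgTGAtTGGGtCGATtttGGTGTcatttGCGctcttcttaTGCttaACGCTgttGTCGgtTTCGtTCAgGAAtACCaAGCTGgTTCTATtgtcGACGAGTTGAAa
gas1: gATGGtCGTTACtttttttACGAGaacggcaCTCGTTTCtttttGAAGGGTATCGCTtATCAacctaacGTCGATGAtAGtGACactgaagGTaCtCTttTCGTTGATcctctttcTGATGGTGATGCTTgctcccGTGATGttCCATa
pfl2: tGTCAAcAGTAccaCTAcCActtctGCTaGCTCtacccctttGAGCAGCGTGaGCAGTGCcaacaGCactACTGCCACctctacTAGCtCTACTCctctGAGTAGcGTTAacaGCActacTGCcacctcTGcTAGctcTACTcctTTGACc
The gas1 stretch begins near the start codon, the pma1 stretch lies early in the coding region, and the pfl2 stretch falls in the serine and threonine repeats close to the peak edge.

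Other genes of the membrane and wall were counted from lists of related genes. Of 84 genes in 7 lists, 80 were in the reference, and 10 of these (12.5%) had a peak, the members included. The lists were drawn up with earlier results of these data known, so this share is a count and no result about the lists beside the 1.92% of all protein-coding genes. A peak was listed for 1 of 2 proton pumps (pma1), 1 of 4 Gas proteins (gas1) and 1 of 9 flocculins (pfl2). It was listed for none of 13 glucan synthases and their regulators, for 1 of 13 wall hydrolases (psu1), for 1 of 7 other wall proteins (ecm33) and for 5 of 32 transporters, which were the phosphate transporter gene pho84, the zinc transporter gene zrt1, the vitamin B6 carrier gene bsu1, and mfs2 and mfs3 of the major facilitator family.

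The other listed wall genes were covered differently from the members. Both psu1 and ecm33 were covered over 100% of the gene, and their peaks passed the 5′ end by 22 and 41 bp and the 3′ end by 267 and 300 bp. Coverage was 100% for zrt1 and pho84, 97.5% for mfs3, 81.2% for bsu1 and 55.4% for mfs2. The zrt1 peak passed the 5′ end by 82 bp and the 3′ end by 297 bp. The pho84 gene does not hold the centre of its peak, which passes its 3′ end by 3244 bp. At the distance of 50 bp none of these 7 peaks reached the 5′ end alone. At 200 bp, chosen after seeing the data, mfs2 (164 bp free at the 5′ end, 734 bp at the 3′ end) and bsu1 (122 and 327 bp) did and pma1 did not, so the contrast with the members depends on that distance. The contrast also depends on which genes were listed. Outside the lists, the peak of the predicted transporter gene SPBC530.02 (40.7% covered) reached the 5′ end alone, as named above. SPBPB7E8.01, with a predicted GPI anchor, was partly covered too (53.4%), but from the 3′ end. The contrast was not tested.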

How the data were processed

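Per the methods, the authors trimmed the reads with Trimmomatic, aligned them with HISAT2 to ASM294v2.26, called peaks with MACS2 for each Pac1-TAP immunoprecipitate over the matching input (duplicates kept) and kept by MSPC those found in both. The deposited table lists 1 combined p-value per peak as the authors computed it, with peak and gene bounds in bp. Of its 12 columns, 5 were read as numbers. No column of the authors' own comparisons was used. Depth per library is not given in the sources used here. The labels only number the replicates, while the study describes them as biological replicates.

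Coverage is the overlap of peak and gene divided by the gene length. Peak bounds were read as 1-based. Start and stop codons, sequences and gene classes came from RefSeq ASM294v3, which is newer than the ASM294v2.26 of the table. Within 500 kb of each member, 15 of 16 listed genes near pma1, 19 of 19 near gas1 and 19 of 20 near pfl2 had the same start or end in both, and 7, 2 and 5 had both the same. The 3′ bounds of the members were identical, while their 5′ bounds differed.

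Words of 50 bases were counted on both strands. Folding used ViennaRNA 2.7.2 and protein similarity BLAST+ 2.17.0, with Python 3.11.15, numpy 2.4.6, pandas 2.3.3 and scipy 1.17.1 for the rest. The overlap, word, codon and folding steps were tested on simulated data. No test between groups was run, since the list holds no values per replicate. Named genes were the members, the genes at their peaks, their closest relatives, genes of the family lists with a peak and the 3 pairs nearest to each in coverage. Genes covered at the 5′ end alone and the neighbouring genes were named outside this rule, after their values had been seen. The members and lists were chosen with earlier results of these data known. Alternatives were the reference gene bounds, coding regions alone, a 0-based peak start, other overlaps and sets of pairs, words of 36 bases, other folding windows, the antisense strand, elongation factor genes added to the codon set, and stricter or looser thresholds.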

Additional observations from a re-analysis of the deposited data

How the results depend on the processing

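Of 42 alternatives for 27 values, 21 left the value within its 95% Wilson interval or within 1.5 times, 21 moved it and 0 reversed it. The intervals treat bases, words, pairs or genes as independent units. They serve only as a tolerance and measure no error of a peak edge or a rank. In coding regions alone, coverage was 100% in pma1, 39.2% in gas1 and 40.3% in pfl2. The centre of the whole peak, leader included, lay at -25.1% of the coding length from the coding midpoint in pma1 and -46.2% in pfl2 (negative is toward the 5′ end). Among centre-holding pairs, 55.4% were covered less than pma1, 13.8% less than gas1 and 16.9% less than pfl2, and among pairs with no other listed gene 13.0% were covered less than gas1. With all reference genes, 2 genes lay at the gas1 peak and 4 at the pfl2 peak, and with an overlap of at least 50 bp 1 gene lay at the pfl2 peak. With words of 36 bases, 80.5% of pfl2 was unique. In windows of 80 nt, mean folding was more stable than in 55.1% of genes for pma1, 69.4% for gas1 and 54.6% for pfl2, and on the antisense strand than in 31.6%, 48.6% and 98.9%. Of the family genes, 5 had a peak with a p-value of at most 1e-200, and 43 pairs were covered over at least 90%. Causes of these moves were not tested beyond what each alternative changes by construction.

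No paired analysis was possible because the table merges the 2 replicates into 1 value per peak, and for the same reason leaving out a replicate was not run. The rank among pairs with no other listed gene does not exist for pma1 and pfl2. Depth is unknown, so how far each edge depends on it could not be measured.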

Other observations

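The antisense strand of pfl2 folded more stably than the sense strand, with a mean window energy of -26.3 kcal/mol against -19.7 on the sense strand. It was more stable than the antisense strand of 98.9% of genes. This is not particular to genes with a peak: among the relatives without one the share was 98.4% for gas2, 95.5% for pma2, 85.3% for gas4 and 49.9% for gas5. The reference-only RNA SPNCRNA.3779 is read from the antisense strand of pfl2 and overlaps 2871 bp of the pfl2 coding region. Most of that overlap lies outside the peak, which holds 1015 bp of the RNA.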
